A study of Mus musculus with 6 samples.

Results

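The transcripts described here are those of 7 genes for organic ion transporters, 6 of the SLC22 family (Slc22a3, Slc22a4, Slc22a5, Slc22a7, Slc22a18 and Slc22a23) and 1 of the SLC47 family (Slc47a1). They were taken by gene name from the deposited gene table, and they are 7 of the 33495 genes it lists and of the 19594 that carry counts. The libraries came from livers of 3 SHP -/- mice and of 3 wild-type mice, all males of C57BL6 background aged 2 months. SHP is the nuclear receptor encoded by Nr0b2, which lacks a DNA-binding domain and represses other receptors. The labels do not say whether the animals were littermates, how the allele was made or whether the receptor is lost in other tissues too. Total liver RNA was enriched for molecules with a 5′ cap by means of an eIF4E variant that binds caps tightly, so all levels refer to capped RNA of whole liver. In such bulk samples fewer cells of a type and less RNA per cell cannot be told apart.

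SLC22 proteins are membrane carriers that move organic cations, anions and zwitterions along their gradients or in exchange for other ions. In hepatocytes several of them sit on the membrane facing the blood and take up drugs, vitamins and metabolites. SLC47 proteins work at the opposite pole, where they exchange protons for organic cations and so release them into bile. The carnitine carriers of the family supply the molecule that brings long-chain fatty acids into mitochondria.

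The libraries held 4494353, 5109217 and 7225842 counts in SHP -/- livers, against 5798186, 4982530 and 6155064 counts in wild-type livers. CPM values, counts per 1000000 counts of a library, are given on these totals after scaling by trimmed means, and length-scaled levels are the same values per kilobase of the gene model. Nr0b2, the gene labelled as knocked out, had 6.62, 7.07 and 10.3 CPM in SHP -/- livers, against 17.7, 12.3 and 13.5 CPM in wild-type livers. The groups did not overlap, but the SHP -/- libraries still held Nr0b2 counts. In limma voom Nr0b2 differed by -0.81 ± 0.25 on the log2 scale (SE, adjusted p = 0.0443), and the call was lost when any 1 library other than that of SHP -/- mouse 3 was left out. Mitochondrially encoded genes took 5.66% to 7.10% of counts in SHP -/- livers, against 10.2% to 10.3% in wild-type livers. The part of this gap in the results was not tested, although with totals taken without those genes all 7 transporters kept their direction and their side of the threshold. The 9 hepatocyte markers with counts summed to 83705 to 88939 CPM in SHP -/- livers and 73730 to 94473 CPM in wild-type livers. Alb, the serum albumin gene, made up most of these sums, averaging 57120 CPM in SHP -/- livers and 55800 CPM in wild-type livers. It differed by 0.05 ± 0.12 on the log2 scale. Of the 9 markers, 1 was called higher and 0 lower at an adjusted p under 0.05. The call was Fgb, at 0.33 ± 0.11 (limma voom, adjusted p = 0.04965), and it held in 2 of the 6 fits without 1 library. With all libraries kept, the Fgb call was also lost with totals without mitochondrially encoded genes, limma trend and the replicate block. Groups did not overlap for 3 markers, all higher, where 17.2% of tested genes had such an upward gap.

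Two-sided moderated tests in limma voom, fitted over 11794 genes, put 4 of the 7 transporters past the threshold of an adjusted p under 0.05, where 14.5% of all tested genes passed. Slc22a7, Slc22a18 and Slc22a23 were higher in SHP -/- livers, a direction called for 7.58% of tested genes. Slc22a5 was lower, a direction called for 6.94%. Slc22a3, Slc22a4 and Slc47a1 did not pass. The same 4 genes were those whose SHP -/- and wild-type values did not overlap, which held for 35.1% of all tested genes. Such a gap lay upward for 17.2% of tested genes and for 3 of the transporters, and downward for 17.9% of tested genes and for 1 transporter. The 7 log2 differences ranged from -0.79 to 1.52 with a median of 0.01, against a median of -0.01 over all tested genes.

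Of the called genes, 3 are shown here with the sequence before their RefSeq start site, because their promoters differ in base composition while Slc22a18 and Slc22a23 rose and Slc22a5 fell. The RefSeq promoters, on build GRCm38.p6, matched 5 of the 7 genes, all but Slc22a7 and Slc47a1. Each run is 5′ to 3′ on the gene's own strand, and capitals mark GGGCGG, the GC box, and GCGTG, the core of the aryl hydrocarbon receptor site, on either strand. The run of Slc22a18 ends 61 bases before the start, since another annotated start lies closer.
Slc22a5, chr11:53891704-53891953, minus strand: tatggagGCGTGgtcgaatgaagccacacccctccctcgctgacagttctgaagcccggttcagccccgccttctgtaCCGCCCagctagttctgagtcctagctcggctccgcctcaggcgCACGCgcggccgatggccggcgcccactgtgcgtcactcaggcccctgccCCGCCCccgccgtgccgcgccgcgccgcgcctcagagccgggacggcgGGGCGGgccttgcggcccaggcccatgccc
Slc22a23, chr13:34345219-34345468, minus strand: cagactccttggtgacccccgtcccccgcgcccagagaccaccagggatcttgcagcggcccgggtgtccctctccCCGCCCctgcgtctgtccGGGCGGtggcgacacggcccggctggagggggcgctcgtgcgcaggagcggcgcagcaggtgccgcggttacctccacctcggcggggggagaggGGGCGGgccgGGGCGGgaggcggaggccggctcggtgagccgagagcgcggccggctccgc
Slc22a18, chr7:143473539-143473728, plus strand: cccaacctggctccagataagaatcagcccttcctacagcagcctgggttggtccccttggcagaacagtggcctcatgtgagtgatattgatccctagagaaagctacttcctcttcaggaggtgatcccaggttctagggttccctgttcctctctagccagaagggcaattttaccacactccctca

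Over 250 bases the promoters of Slc22a5 and Slc22a23 held 30 and 32 CpG dinucleotides and 73.6% and 78.4% G and C. The Slc22a18 promoter held 0 CpG dinucleotides and 52.8% G and C, near the median of 52.4% over all RefSeq mouse promoters of that length. GGGCGG matched 3 times in Slc22a5, 4 times in Slc22a23 and 2 times in Slc22a4, and 32.7% of 32851 promoters hold it. GCGTG matched 2 times in Slc22a5 and 2 times in Slc22a4, and 28.2% of promoters hold it. Also searched on both strands were AGGTCA, the half-site of many nuclear receptors, held by 14.0% of promoters, its extension CAAGGTCA (1.33%) and its direct repeat with 1 base between (0.0335%), both of which contain it. The others were the HNF1 palindrome (0.00913%), TGACNNNGC (10.2%), CCAAT (33.8%) and TATAAA (12.4%). None of these 7 was found in the 5 promoters, and the Slc22a18 and Slc22a3 windows held none of the 9 motifs. GGGCGG stood in the promoter of Slc22a23, which rose, and of Slc22a5, which fell, and was not in that of Slc22a18. The part of these motifs in the differences was not tested.

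**Figure D1:**
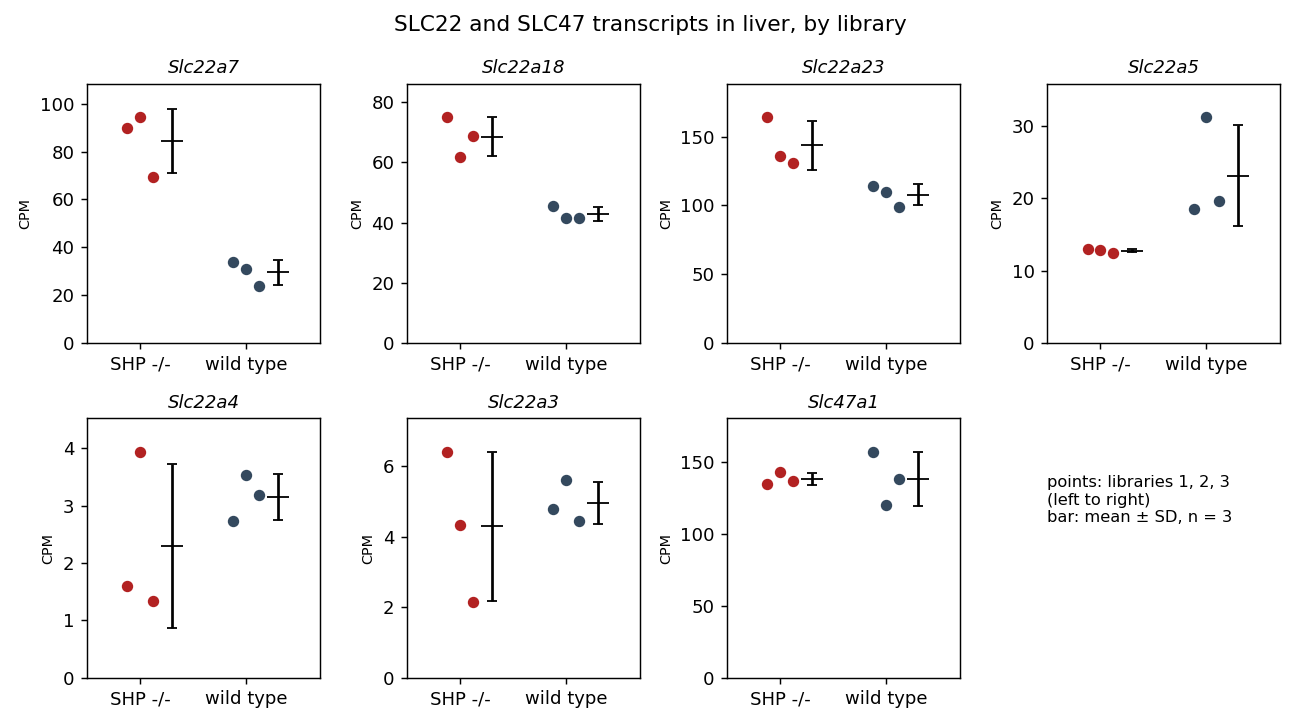
CPM of the 7 transporters in each library (points, mice 1 to 3 from left to right), SHP -/- left and wild type right, with the mean and SD of 3 mice as bars; each panel has its own axis from 0. Slc22a7, Slc22a18 and Slc22a23 lie higher in all 3 SHP -/- livers, Slc22a5 lies lower in all 3, and the groups overlap for Slc22a4, Slc22a3 and Slc47a1.

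Slc22a7 encodes OAT2, a carrier of organic anions and cyclic nucleotides on the blood side of hepatocytes, and it had the largest difference of the 7. The gene (ENSMUSG00000067144) lies on chromosome 17 of build mm9, from 46569134 to 46575414 on the minus strand. It had 394, 480 and 516 counts in SHP -/- livers, against 198, 148 and 150 counts in wild-type livers. As CPM these were 90.0, 94.3 and 69.3 in SHP -/- livers, against 33.8, 30.8 and 23.8 in wild-type livers. Mouse 3 was the lowest of each group, and the lowest SHP -/- liver was still above the highest wild-type liver. The means were 84.5 ± 13.4 CPM in SHP -/- livers and 29.5 ± 5.11 CPM in wild-type livers (SD, n = 3 each). The fitted difference was 1.52 ± 0.17 on the log2 scale, 2.86-fold, with an adjusted p of 0.000135 in limma voom. It was the 130th largest rise of the 11794 genes, and the call held under all 16 alternatives run, among them each of the 6 fits without 1 library.

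Slc22a18 encodes an orphan carrier of the family whose gene is imprinted in the mouse, with the maternal copy active. It lies in an imprinted domain on distal chromosome 7 (ENSMUSG00000000154, mm9, from 150659626 to 150685239, plus strand). Counts were 328, 315 and 512 in SHP -/- livers, against 267, 199 and 262 in wild-type livers. The CPM values were 74.9, 61.9 and 68.7 in SHP -/- livers, against 45.6, 41.4 and 41.6 in wild-type livers. All 3 SHP -/- livers were above all 3 wild-type livers, and the spread within each group was small beside the gap. SHP -/- livers averaged 68.5 ± 6.51 CPM and wild-type livers 42.8 ± 2.35 CPM (SD, n = 3 each). The log2 difference was 0.67 ± 0.12, 1.59-fold, with an adjusted p of 0.00373 in limma voom, and this call also held under all 16 alternatives.

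Slc22a23, another orphan member with no established substrate, was the third gene that rose. It is a gene of chromosome 13 (ENSMUSG00000038267, mm9, from 34271027 to 34437051, minus strand). Its CPM values were 164, 136 and 131 in SHP -/- livers, against 114, 110 and 99.1 in wild-type livers, from 529 to 975 counts per library. Mouse 1 of the SHP -/- group stood highest, and the remaining SHP -/- livers still lay above every wild-type liver. The means were 143.6 ± 17.6 CPM in SHP -/- livers and 107.6 ± 7.55 CPM in wild-type livers (SD, n = 3 each). Its difference was 0.41 ± 0.12 on the log2 scale, 1.33-fold, with an adjusted p of 0.0324 in limma voom. Leaving out a library ended the call in 4 of 6 fits, those without SHP -/- mouse 1 (0.32, adjusted p = 0.122), SHP -/- mouse 2 (0.45, adjusted p = 0.0528), wild-type mouse 2 (0.43, adjusted p = 0.0613) or wild-type mouse 3 (0.35, adjusted p = 0.139). In the authors' deposited table the adjusted p of Slc22a23, converted from its score, was 0.0765.

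Slc22a5 encodes OCTN2, the sodium-coupled carrier that brings carnitine into cells, and it was the only one of the 7 called lower. The gene (ENSMUSG00000018900) lies on chromosome 11 of mm9, from 53678044 to 53705162 on the minus strand. It had 57, 65 and 93 counts in SHP -/- livers, against 109, 150 and 124 counts in wild-type livers. The CPM values were 13.0, 12.8 and 12.5 in SHP -/- livers, against 18.6, 31.2 and 19.7 in wild-type livers. The SHP -/- livers were nearly equal and all below the wild-type livers, whose spread came mostly from mouse 2. SHP -/- livers averaged 12.8 ± 0.264 CPM and wild-type livers 23.1 ± 6.97 CPM (SD, n = 3 each). The log2 difference was -0.79 ± 0.22, 1.73-fold lower, with an adjusted p of 0.0284 in limma voom. Leaving out a library ended the call in 5 of 6 fits, and it held only without wild-type mouse 1 (-0.92, adjusted p = 0.0229). Without SHP -/- mouse 1, 2 or 3 the adjusted p was 0.0614, 0.064 and 0.0753. Without wild-type mouse 2 the log2 difference was -0.58 (adjusted p = 0.0756), and without wild-type mouse 3 it was -0.89 (adjusted p = 0.0603).

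Reads of Slc22a5 can in part not be assigned to it alone. Its GENCODE M21 protein-coding transcript holds 3027 distinct words of 36 bases, the read length. Of these, 1051 (34.7%) also occur in transcripts of another gene of any type, 1008 of them in Slc22a21. Slc22a21 encodes OCTN3, a carnitine carrier found in the mouse. It had 0, 0 and 4 counts in SHP -/- livers, against 2, 6 and 4 counts in wild-type livers. Added together, Slc22a5 and Slc22a21 gave 12.9 ± 0.146 CPM in SHP -/- livers and 23.9 ± 7.41 CPM in wild-type livers (SD, n = 3 each), and the groups again did not overlap. Slc22a4 shares 136 of its 2228 words (6.1%), 77 of them with Gm12220, and Slc47a1 shares 2 of 2770. Slc22a3, Slc22a7, Slc22a18 and Slc22a23 share none.

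Slc22a4 encodes OCTN1, the carrier of the fungal antioxidant ergothioneine, and it lies beside Slc22a5 and Slc22a21 on chromosome 11 (ENSMUSG00000020334, mm9, from 53796625 to 53841592, minus strand). It had only 7, 20 and 10 counts in SHP -/- livers, against 16, 17 and 20 counts in wild-type livers. As CPM these were 1.60, 3.93 and 1.34 in SHP -/- livers, against 2.73, 3.53 and 3.18 in wild-type livers. Mouse 2 of the SHP -/- group was the highest of all 6, so the groups overlapped. The log2 difference of -0.65 ± 0.46 (limma voom, adjusted p = 0.372) was not detectable at this depth, and it ranged from -1.06 to -0.24 with 1 library left out.

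Slc22a3 encodes OCT3, a carrier of monoamines and other organic cations that is imprinted in the mouse placenta. It is on chromosome 17 (ENSMUSG00000023828, mm9, from 12612838 to 12700570, minus strand). The 6.39, 4.32 and 2.15 CPM of SHP -/- livers, against 4.78, 5.61 and 4.45 CPM of wild-type livers, came from 16 to 28 counts per library. SHP -/- livers held both the highest and the lowest value. In limma voom Slc22a3 differed by -0.46 ± 0.39 on the log2 scale (adjusted p = 0.465), and without SHP -/- mouse 3 it was 0.10 (adjusted p = 0.892).

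Slc47a1 encodes MATE1, the proton exchanger that releases organic cations into bile, and it had by far the deepest counts among the genes that did not pass. The gene (ENSMUSG00000010122) lies on chromosome 11 of mm9, from 61156902 to 61191847 on the minus strand. Its CPM values were 135, 143 and 137 in SHP -/- livers, against 157, 120 and 138 in wild-type livers, from 577 to 1024 counts per library. The SHP -/- values lay inside the range of the wild-type values. SHP -/- livers averaged 138.7 ± 4.24 CPM and wild-type livers 138.4 ± 18.8 CPM (SD, n = 3 each). In limma voom Slc47a1 differed by 0.01 ± 0.12 on the log2 scale (adjusted p = 0.97), and the value lay between -0.08 and 0.10 with 1 library left out.

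**Figure D2:**
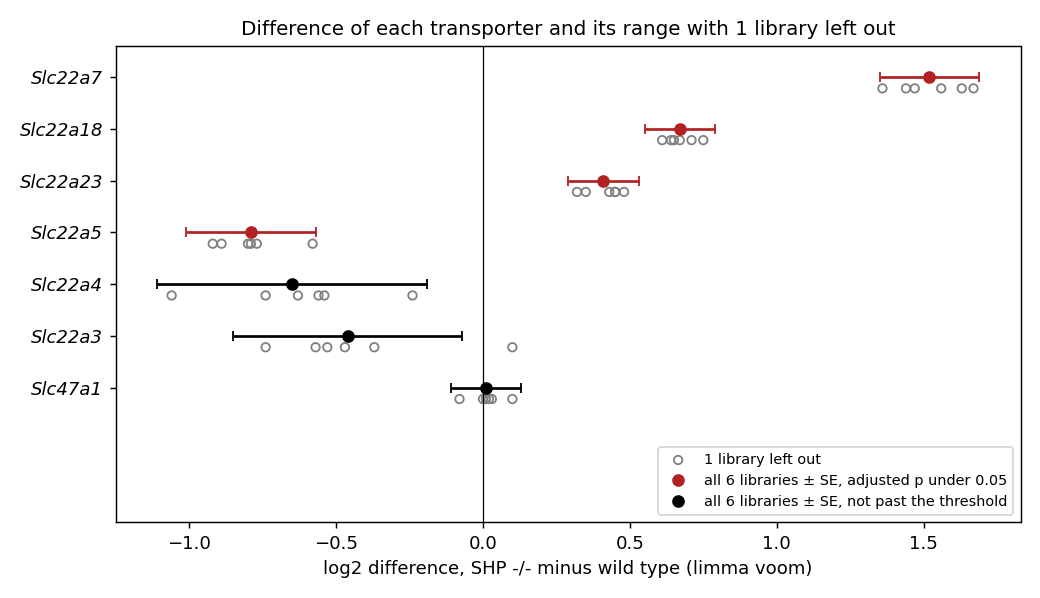
Log2 differences, SHP -/- minus wild type, of the 7 transporters from limma voom over all 6 libraries (filled points with SE; red for an adjusted p under 0.05, black otherwise) and from the 6 fits that each leave out 1 library (open points). Slc22a7 ranges from 1.36 to 1.67 and Slc22a18 from 0.61 to 0.75 with 1 library left out, while Slc22a3 crosses 0 in 1 fit and Slc47a1 stays within 0.10 of it.

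Per kilobase of gene model, the order of the transporters differed between the genotypes. In SHP -/- livers Slc22a7 had 42.4 ± 6.70, Slc47a1 41.0 ± 1.25 and Slc22a18 39.9 ± 3.79 CPM per kilobase (SD, n = 3), and these 3 levels overlapped. In wild-type livers Slc47a1 led with 40.9 ± 5.55, ahead of Slc22a18 with 24.9 ± 1.37, Slc22a23 with 16.8 ± 1.18 and Slc22a7 with 14.8 ± 2.56 CPM per kilobase (SD, n = 3). Only Slc22a23 and Slc22a7 overlapped among these 4. Slc22a23 came next in SHP -/- livers with a length-scaled level of 22.5 ± 2.76. Below it came Slc22a5, with a length-scaled level of 4.15 ± 0.0861 in SHP -/- livers and 7.54 ± 2.27 in wild-type livers. The 2 least abundant genes overlapped each other in either genotype. Slc22a3 had 1.22 ± 0.606 in SHP -/- livers and 1.41 ± 0.171 in wild-type livers on that scale, and Slc22a4 had 0.897 ± 0.558 in SHP -/- livers and 1.23 ± 0.158 in wild-type livers.

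Slc22a7 made up 27.8% ± 3.05 of the summed length-scaled level of the 7 transporters in SHP -/- livers and 13.7% ± 1.63 in wild-type livers (SD, n = 3 each). The share of Slc47a1 was 27.0% ± 2.03 in SHP -/- livers and 38.0% ± 3.73 in wild-type livers, although its own level hardly differed. Slc22a5 held 2.74% ± 0.129 in SHP -/- livers and 7.06% ± 2.31 in wild-type livers. The shares are parts of 1 sum, so they are not independent of each other. Summed without length scaling, the 7 genes gave 484.7, 456.6 and 422.3 CPM in SHP -/- livers, against 376.5, 342.3 and 329.7 CPM in wild-type livers. Every SHP -/- sum was above every wild-type sum.

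**Figure D3:**
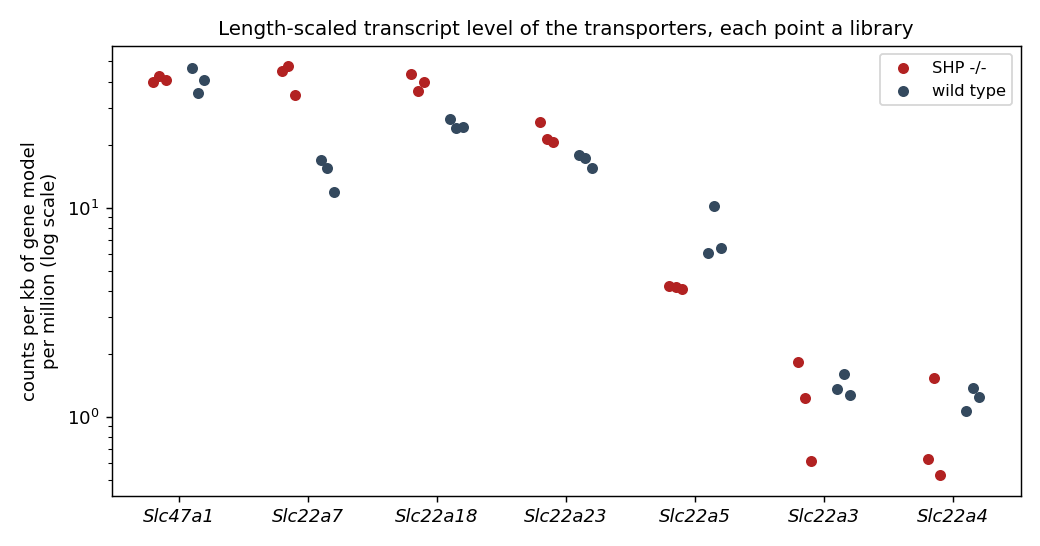
Length-scaled levels of the 7 transporters in each library, in CPM per kilobase of gene model on a log axis, SHP -/- in red left of wild type in dark blue. Slc22a7 lies level with Slc47a1 and Slc22a18 in SHP -/- livers and level with Slc22a23 in wild-type livers, and Slc22a3 and Slc22a4 lie lowest in either genotype.

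The genes whose pattern was most like that of a called transporter were those with the smallest root mean square difference of centred log2 CPM over the 6 libraries, among 9529 genes. For Slc22a7 one of the nearest was Cldn14, a tight junction claudin gene, at a distance of 0.132 and with a log2 difference of 1.43 ± 0.31 (limma voom, adjusted p = 0.00905). The Cldn14 call was lost without wild-type mouse 3. For Slc22a18 one of the nearest was Plbd2, a lysosomal phospholipase-like gene, at 0.054 and with a log2 difference of 0.64. Slc22a23 was nearest to Pcx, which encodes pyruvate carboxylase, and to Lrrk1, each at 0.023. Slc22a5 was nearest to Slc4a7, a sodium bicarbonate carrier gene (0.095), with a log2 difference of -0.75, and to Mmd (0.112), with one of -0.66. Lrrk1 did not pass the threshold (limma voom, adjusted p = 0.104). With 1 library left out, the Slc4a7 call held in 1 of 6 fits, that of Pcx in 2, and those of Plbd2 and Mmd in all 6. The Slc4a7 call was also lost with no low-count filter. These distances describe 6 libraries and were chosen as the smallest of many. The log2 differences and calls of these genes resemble those of the transporters because of that choice.

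For most of the rest of the SLC22 and SLC47 families, with their SV2 and SVOP relatives, the deposited gene table gave no counts. Such genes had empty count cells or were not listed under that name, so their absence from liver was not shown. Of 27 family genes and relatives looked for, 7 had counts, 2 could be tested in limma voom and 0 passed the threshold. Of the 2 tested, 1 had an unadjusted p under 0.05, as did 3606 of all 11794 tested genes. Slc22a15 differed by 0.53 ± 0.45 on the log2 scale (adjusted p = 0.465).

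Of the enzymes and mitochondrial carriers that make, use or move carnitine, the substrate of the Slc22a5 product, 10 could be tested. Of these 10 genes, 4 were higher in SHP -/- livers, 0 lower and 6 not past the threshold, with a median log2 difference of 0.36. The shares over all tested genes, 7.58% called higher and 6.94% called lower, stand beside this and each later list. Cpt1a, which couples carnitine to long-chain fatty acids at the outer mitochondrial membrane, had 476.2 ± 37.4 CPM in SHP -/- livers and 326.8 ± 23.5 CPM in wild-type livers (SD, n = 3 each). Cpt1a rose by 0.54 ± 0.10 on the log2 scale in limma voom (adjusted p = 0.00433). Aldh9a1, an aldehyde dehydrogenase of carnitine synthesis, rose by 0.47 ± 0.10, and both genes kept the call with any 1 library left out. Crat, which makes acetylcarnitine, rose by 0.62, and Shmt2, a mitochondrial serine hydroxymethyltransferase, rose by 0.42, with calls that were lost in 4 and 2 of the 6 fits without 1 library. Crot, a peroxisomal carnitine acyltransferase, differed by -0.31, and Shmt1, the cytosolic counterpart of Shmt2, by 0.31, and neither passed. Bbox1, the last enzyme of carnitine synthesis, differed by -0.29 ± 0.12 (limma voom, adjusted p = 0.116) and did not pass, although its groups did not overlap. The number called higher was 2 without wild-type mouse 3, and 1 gene was called lower without wild-type mouse 1.

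Among the other hepatic uptake carriers more genes were called lower than higher. Of 15 tested, 1 was higher, 5 were lower and 9 did not pass, with a median log2 difference of 0.03. Over all tested genes, 7.58% were called higher and 6.94% lower. Slco1a1, Slco1a4 and Slco1b2, all called lower, lie in 1 stretch of chromosome 6 (mm9, from 141578039 to 141895316). They may therefore not be separate observations. Slco2a1, a prostaglandin carrier, had 23.0 ± 3.58 CPM in SHP -/- livers and 64.3 ± 6.80 CPM in wild-type livers (SD, n = 3 each), a log2 difference of -1.49 ± 0.15 (limma voom, adjusted p = 9.98e-05). Slco1a4 fell by 1.33 ± 0.33 and Slco1a1 by 0.94 ± 0.11, both carriers of bile acids and drugs. The Slco1a4 call was lost without wild-type mouse 1 or 2 and with robust variance moderation. Slc16a7, a monocarboxylate carrier, fell by 0.78. The remaining calls were Slco1b2, an organic anion carrier that differed by -0.49, and Slc29a1, a nucleoside carrier that differed by 0.44. The Slc29a1 call was lost without wild-type mouse 3 (adjusted p = 0.0674), which left 0 uptake carriers called higher. Slc10a1, the sodium bile acid carrier, differed by 0.31 and Slc26a1, a sulfate carrier, by 0.13, and neither passed.

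**Figure D4:**
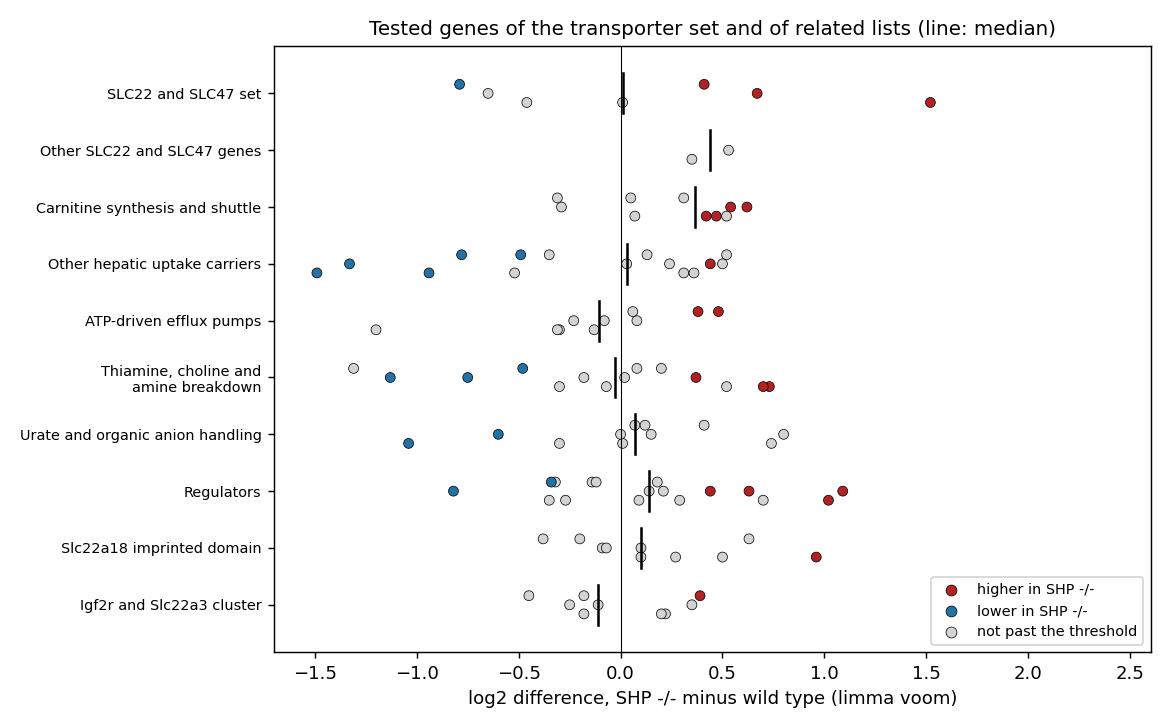
Log2 differences, SHP -/- minus wild type (limma voom), of the tested genes of the transporter set and of 9 related lists; red is higher and blue lower in SHP -/- at an adjusted p under 0.05, grey is not past it, and the bar is the median. The transporter set has 3 red and 1 blue point around a median of 0.01, the uptake carriers have 5 blue points, and the carnitine genes have 4 red points.

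Among ATP-driven efflux pumps, which work beside Slc47a1 in moving compounds out of hepatocytes, 2 of 10 were higher, 0 lower and 8 not past the threshold, with a median of -0.10. Abcc6 rose by 0.48 ± 0.12 and Abcc3, a pump toward the blood, by 0.38 ± 0.11 on the log2 scale. At most 1 pump was called when a library was left out. Abcb11, the bile salt pump, differed by 0.06 and Abcc2, the canalicular pump for conjugates, by -0.08, and neither passed. Among the other canalicular pumps, Abcb1a, a drug pump, had 1.97 ± 0.508 CPM in SHP -/- livers and 4.79 ± 1.05 CPM in wild-type livers (SD, n = 3 each). The groups did not overlap for Abcb1a, and its log2 difference of -1.20 ± 0.40 missed the threshold (limma voom, adjusted p = 0.0588). Abcg2 differed by -0.31 ± 0.15 and Abcb4, the phospholipid pump, by 0.08 ± 0.11, and neither passed. Under limma trend 1 pump was called lower.

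The carriers of thiamine and choline and the enzymes that break down amines, substrates that the cation carriers share, gave 3 higher, 3 lower and 8 not past the threshold of 14 tested, with a median of -0.03. Inmt, an amine N-methyltransferase, fell by 1.13 ± 0.17, and Hnmt, the histamine N-methyltransferase, fell by 0.75 ± 0.22. Comt1, the catechol O-methyltransferase, averaged 909 ± 73.1 CPM in SHP -/- livers and 548.9 ± 50.8 CPM in wild-type livers (SD, n = 3 each) and rose by 0.73 ± 0.11 (limma voom, adjusted p = 0.000834). Nnmt, the nicotinamide N-methyltransferase, rose by 0.70. The methyltransferases named here therefore moved in either direction. Slc44a1, a choline carrier, differed by -0.18 and did not pass. The Inmt and Comt1 calls held with any 1 library left out, that of Hnmt ended in 4 of those 6 fits, and the Nnmt call was lost without wild-type mouse 3, where 1 gene was called in each direction.

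Genes of urate, pyrimidine and organic anion handling gave 0 higher, 2 lower and 9 not past the threshold of 11 tested, with a median of 0.07. Slc17a1 and Slc17a2, phosphate and organic anion carriers, fell by 1.04 ± 0.25 and 0.60 ± 0.12 on the log2 scale. The Slc17a1 call was lost without wild-type mouse 3, and 2 genes of the list were called higher without SHP -/- mouse 3. Uox, the urate oxidase, and Xdh, the xanthine dehydrogenase that makes urate, differed by 0.00 and 0.01.

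Of 17 regulators known for these transporters, 4 were higher, 2 lower and 11 not past the threshold, with a median of 0.14. Cebpa, a hepatocyte transcription factor, had 485.5 ± 20.3 CPM in SHP -/- livers and 239.4 ± 26.6 CPM in wild-type livers (SD, n = 3 each), a rise of 1.02 ± 0.11 on the log2 scale (limma voom, adjusted p = 0.000101). Its relative Cebpb rose by 1.09 ± 0.16, and Keap1, the inhibitor of NRF2, rose by 0.63. Nr1i3, the xenobiotic receptor CAR, fell by 0.82 ± 0.16. Hnf4a, a nuclear receptor of hepatocyte identity, and Ppara, the fatty acid receptor linked to Slc22a5, differed by 0.14 and -0.14, and neither passed. The Cebpa, Cebpb and Nr1i3 calls held with any 1 library left out, and the Keap1 call was lost without wild-type mouse 3. The other calls were Rxra, the partner receptor of many nuclear receptors, at 0.44 ± 0.11, and Nr5a2, the receptor LRH-1, at -0.34 ± 0.11. The Nr5a2 call was lost in all 6 fits without 1 library, so that 1 regulator was called lower in each, and the Rxra call was lost without SHP -/- mouse 1 or wild-type mouse 3. With all libraries kept, the Nr5a2 call was also lost with unscaled totals, median of ratios scaling, no low-count filter and the replicate block. The number called higher was 2 without wild-type mouse 3.

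Leaving the transporters themselves aside, 1 gene passed the threshold in each imprinted region. In the domain of Slc22a18 on distal chromosome 7, 1 of 10 other tested genes was higher, 0 were lower and 9 did not pass, with a median of 0.10. Dhcr7, the last enzyme of cholesterol synthesis by one route, rose by 0.96 ± 0.18. Cd81, on the other side of Slc22a18 from Dhcr7, and Cttn, which lies beyond Dhcr7, differed by 0.27 and 0.10 without passing. Cdkn1c, a cell cycle inhibitor gene beside Slc22a18 that is also expressed from the maternal copy, differed by 0.50 ± 0.43 (limma voom, adjusted p = 0.469); it was named after its value was seen. In the Igf2r cluster that holds Slc22a3, 1 of 9 was higher, 0 lower and 8 not past the threshold, with a median of -0.11. The gene that rose was Plg, which encodes plasminogen, by 0.39 ± 0.09, and its call was lost without SHP -/- mouse 1 or wild-type mouse 3. Sod2, a mitochondrial superoxide dismutase, differed by -0.11.

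The table lists 77 other genes whose start or end lies within 200000 bases of a start or end of the 7 transporters, of which 32 could be tested. Of these 3 were higher, 1 lower and 28 not past the threshold, with a median of 0.21. Around Slc22a7, 2 of 10 tested neighbours were higher: Srf, the serum response factor, by 0.85 ± 0.22, and Klc4, a kinesin light chain, by 0.43 ± 0.13. The Srf call was lost without wild-type mouse 3 and the Klc4 call in 5 of the 6 fits without 1 library. With all libraries kept, the Klc4 call was also lost with no low-count filter. Slc22a18 and Slc22a23 each had 5 tested neighbours and Slc22a5 had 2, and none of them passed. Plg beside Slc22a3 was the third that rose, and Aldh3a2, a fatty aldehyde dehydrogenase near Slc47a1, fell by 0.85 ± 0.14. Bphl, near Slc22a23, differed by 0.20 without passing. No transporter overlaps another gene in the table's coordinates, and the closest genes were Crip3, at 414 bases from Slc22a7, and Slc47a2, at 539 bases from Slc47a1.

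**Figure D5:**
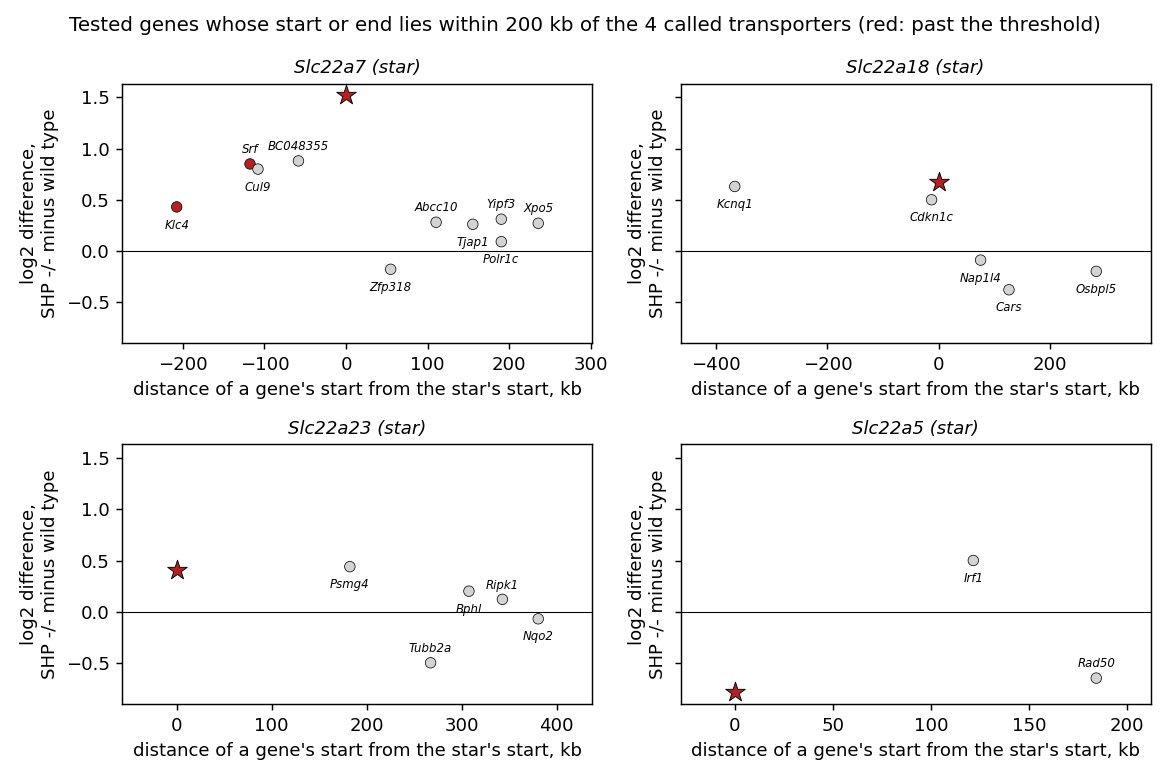
Log2 difference, SHP -/- minus wild type, of the tested genes near the 4 called transporters (stars) against the distance of each gene's start from the star's start in kilobases; red points passed the threshold. Srf and Klc4 are the only called neighbours, both near Slc22a7, and their differences of 0.85 and 0.43 are smaller than the 1.52 of Slc22a7.

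Markers of other cell types were read beside these values. Over all 11794 tested genes, 3606 had an unadjusted p under 0.05 in limma voom. Of 11 macrophage markers, 3 were higher and 0 lower, with sums of 406 to 623 CPM in SHP -/- livers and 401 to 470 CPM in wild-type livers. The macrophage median was 0.26 on the log2 scale, 7 of the 11 were positive, and 5 had an unadjusted p under 0.05. Groups did not overlap for 2 higher and 1 lower, which was Timd4 at -0.81 ± 0.28 (limma voom, adjusted p = 0.0639). Under limma trend 1 macrophage marker was called lower. The number called higher was 0 without wild-type mouse 3, 1 without SHP -/- mouse 2 or wild-type mouse 2, and 2 in the other fits without 1 library. Of 8 sinusoidal endothelial markers, 1 was higher and 0 lower, with sums of 330 to 511 CPM in SHP -/- livers and 499 to 548 CPM in wild-type livers. Their median log2 difference was -0.27, 2 of the 8 were positive, 5 had an unadjusted p under 0.05, and the groups did not overlap for 3 lower and 1 higher. Without SHP -/- mouse 2 or 3 the calls were 0 higher and 1 lower, and without wild-type mouse 2 or 3 there were 0 calls. Of 9 stellate and matrix markers 0 passed in limma voom and 3 had an unadjusted p under 0.05, with sums of 192 to 392 CPM in SHP -/- livers and 323 to 372 CPM in wild-type livers. SHP -/- mouse 1 gave the lowest SHP -/- sum of the macrophage, of the endothelial and of the stellate and matrix markers. The endothelial sums of the other SHP -/- livers lay inside the wild-type range. Of 4 cholangiocyte and 5 erythroid markers tested 0 passed, with 0 and 2 at an unadjusted p under 0.05. Leaving out SHP -/- mouse 1 put 2 stellate and matrix markers and 1 erythroid marker past the threshold as higher. Leaving out SHP -/- mouse 2 put 2 erythroid markers past it as higher, and leaving out SHP -/- mouse 3 put 1 stellate and matrix marker past it in each direction. Several of these transporters are also abundant in kidney, and of 11 kidney markers 5 had counts. Their sum was 4.71 to 8.59 CPM in SHP -/- livers and 1.25 to 2.70 CPM in wild-type livers. Lrp2, which encodes the endocytic receptor megalin, had 30, 24 and 57 counts in SHP -/- livers, against 5, 4 and 13 counts in wild-type livers, and was called higher, with a log2 difference of 2.36 ± 0.49. Cubn, Slc12a3, Slc5a2 and Aqp2 had at most 4 counts in any library, and the other 6 kidney markers had none listed. The part of these shifts in the transporter results was not tested.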

How the data were processed

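RNA of 6 livers, 3 SHP -/- and 3 wild-type, was cap-selected and sequenced as 36-base paired reads with 3 barcoded samples per lane, per the labels' protocols. The labels place no sample in a lane, so it is unknown whether the lanes followed the genotypes. A lane effect could therefore not be separated from the genotype difference. Reads were aligned with Novoalign 2.05.33, and the build was mm9, both per the submitters' processing notes. What tallied the reads per gene is unstated there. The authors deposited 1 gene table with a raw count per library, an RPKM of the pooled libraries of each genotype, a log2 ratio, and a p-value and an adjusted p each as a score. The adjusted score was read as the size of 10 times log10 of the adjusted p: adjusting the p-values behind the deposited p scores gave it back with a median ratio of 1.000. Of the 33495 genes listed, 13901 had empty count cells, and 4840 lines of the deposited table ended early. In the deposited counts 61.8% of values from 1 to 19 were even.

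Counts were fitted with limma 3.58.1 (voom, R 4.3.3), with genotype as the single term. Totals were multiplied by trimmed-mean (TMM) factors from 0.966 to 1.03. A gene was tested if at least 3 libraries reached 1.83 CPM, the level of 10 counts at the median total, and its total was at least 15. P-values were two-sided and adjusted by Benjamini-Hochberg over 11794 genes, with a threshold of 0.05. They set the genotype difference against the spread between animals within each genotype, with variances moderated by use of all genes. Other scalings, filters, variance models, the replicate number as a block and fits without 1 library were the alternatives. The 7 transporters and all gene lists were chosen with earlier results of these data known. The text names the 7 transporters, Nr0b2, up to 4 called and 2 abundant uncalled genes of each related list, and the 2 genes most like each called transporter. Some genes that this rule names are not reported here. A few further genes, such as Cdkn1c, Abcb1a and Bbox1, were named after their values were seen. Marker lists are given by counts and sums. Promoters are from RefSeq (GRCm38.p6) and shared words from GENCODE M21 transcripts, so neither shares coordinates with the table. Intervals over counts are not given; low counts carry counting error beside the spread between animals.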

Additional observations from a re-analysis of the deposited data

How the results depend on the processing

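Under the 10 alternatives that kept all 6 libraries, Slc22a7, Slc22a18, Slc22a23 and Slc22a5 kept their direction and their side of the threshold, and Slc47a1 did too. Slc22a3 and Slc22a4 did so under 9 and were not tested under the stricter filter. Leaving out 1 library moved more: 3 results changed direction, Slc22a3 to 0.10 without SHP -/- mouse 3, and Slc47a1 to -0.00 without SHP -/- mouse 2 and to -0.08 without wild-type mouse 2, neither of which passed the threshold in any fit. With 1 library left out Slc22a3 ranged from -0.74 to 0.10 and Slc47a1 from -0.08 to 0.10. With 1 library left out the number of transporters called higher was 2 to 3 and called lower 0 to 1. Over all genes the number called higher was 353 to 818 and called lower 276 to 783, against 894 and 819 with all libraries; the lowest counts, 353 and 276, came without wild-type mouse 3. In the related lists 6 to 18 genes were called higher and 9 to 14 lower, against 18 and 13 with all libraries, and the 6 also came without wild-type mouse 3. Each such fit has fewer samples.

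Nr0b2 lost its call with unscaled totals (-0.81, adjusted p = 0.0536), with no filter on low counts (-0.81, adjusted p = 0.0667) and with the replicate block (-0.79, adjusted p = 0.0553), and ranged from -1.06 to -0.66 with 1 library left out, all limma fits; the cause was not tested. Same-numbered libraries deviated from their group means with a correlation of -0.02 in each of the 3 pairs, so the numbers were not taken to pair the animals. The replicate block gave 936 genes higher and 843 lower, and left the transporter calls at 3 and 1. The median of all genes lay within 0.01 of 0 on the log2 scale under every scaling. Depth limits Slc22a3 and Slc22a4 most, with at most 28 counts in any library.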
